A study of Mus musculus with 6 samples.

Results

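The genes described here are those of mouse antigen presentation: the major histocompatibility complex (MHC) genes, whose mouse symbols begin with H2-, and 10 genes that make, load or switch on MHC molecules (B2m, Tap1, Tap2, Tapbp, Psmb8, Psmb9, Psmb10, Cd74, Ciita and Nlrc5). They were chosen by name, leaving out 3 names that mark pseudogenes, and number 52 of the 35850 genes in the deposited table. Members kept by name can still have transcripts labelled as pseudogene, as H2-Bl, H2-K2 and H2-Q5 do. The study sequenced poly(A) RNA from optic nerves of 6-week-old mice with 2 diets, 3 libraries per diet. The obesogenic group received the sucrose-containing AIN-76A diet with 58% fat energy, and the control group PicoLab 5053. The series title calls the diet exposure maternal. All mice of both groups carried GFAP-Cre with Nf1-Flox/R681X, that is 1 floxed Nf1 allele, 1 Nf1 allele bearing the mutation R681X, and Cre driven by the promoter of the astroglial gene GFAP, a model that forms optic glioma. The labels used here name no strain and do not say whether libraries of a diet came from separate animals or litters, so p-values measure only how these samples vary, which may be technical. Values are in TPM, transcript abundance corrected for length and scaled to a library's total, summed over the listed transcripts of a gene, always given for libraries 1, 2 and 3 of a diet in that order.

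MHC class I molecules are a heavy chain paired with the light chain B2m, and they carry peptides from inside the cell to CD8 T cells and NK cells. The peptides are cut by the proteasome, whose immune subunits are Psmb8, Psmb9 and Psmb10, pumped into the endoplasmic reticulum by Tap1 and Tap2, and loaded with the help of Tapbp. Classical class I genes (H2-K1 and H2-D1 here) are on nearly all cells, while the nonclassical genes of the Q, T and M regions are close relatives with narrower roles. Class II molecules are pairs of an alpha and a beta chain on dendritic cells, B cells and macrophages, guided by the invariant chain Cd74 and edited by the H2-DM and H2-O pairs. Interferon gamma raises both pathways, class II through the coactivator Ciita and class I through its relative Nlrc5. In the resting nervous system parenchyma both are low, and microglia are among the cells that can raise them.

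The H2 genes lie on chromosome 17, and their start regions share short motifs, shown here for members that carry the main comparisons. RefSeq (build GRCm38.p6) gave start regions for 37 of the 52 members. Each run below is the 150 bases before a gene's start, 5′ to 3′ on the gene's strand. Capitals mark AANNGAAA, the core letters of interferon regulatory factor sites, TGACG, the core of the X2 box bound by CREB-type factors, and ATTGG, the Y box read by NF-Y, each on either strand and free to overlap. B2m lies at chr2:122147537-122147686 (plus strand), H2-K1 at chr17:34000348-34000497 (minus strand) (1 of 2 starts), H2-D1 at chr17:35262944-35263093 (plus strand), H2-Q4 at chr17:35379467-35379616 (plus strand), H2-Aa at chr17:34287824-34287973 (minus strand) and H2-Eb1 at chr17:34305717-34305866 (plus strand).
B2m: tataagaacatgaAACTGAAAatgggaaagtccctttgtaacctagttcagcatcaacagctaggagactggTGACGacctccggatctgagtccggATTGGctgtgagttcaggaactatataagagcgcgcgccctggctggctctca
H2-K1: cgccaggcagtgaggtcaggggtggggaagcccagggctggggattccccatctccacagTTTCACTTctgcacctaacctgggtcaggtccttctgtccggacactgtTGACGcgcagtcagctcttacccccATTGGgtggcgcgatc
H2-D1: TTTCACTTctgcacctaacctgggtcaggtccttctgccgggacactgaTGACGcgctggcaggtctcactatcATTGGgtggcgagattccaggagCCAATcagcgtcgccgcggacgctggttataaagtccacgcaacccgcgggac
H2-Q4: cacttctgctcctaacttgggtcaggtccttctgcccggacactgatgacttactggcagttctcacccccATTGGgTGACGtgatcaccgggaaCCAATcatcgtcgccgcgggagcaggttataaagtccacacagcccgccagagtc
H2-Aa: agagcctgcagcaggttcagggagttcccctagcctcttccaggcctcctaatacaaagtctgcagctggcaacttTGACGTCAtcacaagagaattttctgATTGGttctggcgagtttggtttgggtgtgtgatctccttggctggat
H2-Eb1: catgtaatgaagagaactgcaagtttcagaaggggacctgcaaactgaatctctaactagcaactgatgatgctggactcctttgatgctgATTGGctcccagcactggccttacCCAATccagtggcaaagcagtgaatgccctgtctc

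In the 250 bases before the start, AANNGAAA was present in 51.4% of the 37 members and in 23.9% of all 27025 genes of the table. TGACG was present in 40.5% of members and 19.8% of all genes, and ATTGG in 86.5% and 37.5%. TGACG followed by ATTGG after 10 to 30 bases, the spacing of an X2 and Y pair, was found in 16.2% of members (B2m, H2-Aa, H2-D1, H2-K1, H2-M3 and H2-Q7) and in 0.733% of all genes. The printed H2-Q4 window has ATTGG before TGACG, and the H2-Eb1 window has ATTGG but not the letters TGACG. These are letters found in a window, not measured binding sites.

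Libraries differed in ways that bear on the members. Obesogenic library 2 stood apart: 20.6% of its listed TPM came from immunoglobulin genes, whereas the other 5 libraries had 0.00438% to 0.0439%. The members took 0.288%, 3.72% and 0.247% of the listed TPM in the obesogenic libraries and 0.434%, 0.667% and 0.268% in the control libraries. Nf1, the gene the model alters, measured 2.71, 1.55 and 2.92 TPM in obesogenic libraries and 3.67, 3.09 and 4.28 TPM in control libraries (log2 change -0.48, limma adjusted p = 0.647). Markers of the optic nerve's own cells were present in every library, with summed levels of 26870 to 69750 TPM for 8 oligodendrocyte markers and 2446 to 6942 TPM for 8 astrocyte markers. All 3 obesogenic sums of oligodendrocyte markers lay below all 3 control sums. The diets did not overlap in 4 of the 8 markers, all lower with the obesogenic diet, as in 7.45% of all genes. Of the 8, 0 passed (limma), with 3 at an unadjusted p under 0.05, beside 1575 of all 14364 genes. Cldn11, a tight junction protein of myelin, had the smallest unadjusted p among them, at 236, 149.9 and 159 TPM in obesogenic and 475, 329 and 377 TPM in control libraries. Of the astrocyte markers it was Gfap, the astrocyte filament protein, at 2787, 1512 and 1689 TPM in obesogenic and 5157, 3486 and 2459.8 TPM in control libraries. The table listed 201 of the 222 transcripts that GENCODE M21 gives the members, and lists no principal transcript for 7 of the 48 members that have one (H2-Aa, H2-K1, H2-Ke6, H2-M10.1, H2-Ob, H2-Q2 and H2-Q7). Nlrc5, H2-DMa, H2-T22 and H2-M10.4 each lack 1 of 2 principal transcripts. The levels of all these members cover their listed transcripts only, and the missing transcripts were not analysed here.

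Of the 52 members, 34 were at 1 TPM or more in 3 or more libraries and were tested. None passed in either direction between the diets (limma on log2(TPM + 1), adjusted over all 14364 genes tested), and 1 had an unadjusted p under 0.05. Over all genes, 1 was called, which is 0.00696%. The change was positive in 33 of the 34 members (median 0.66 on the log2 scale) and in 8288 of the 14364 genes (median 0.08). The positive sign came with obesogenic library 2, which was the highest of the 6 libraries in 31 of the 34 members, and in 1822 of all genes tested. In 25 of the 34 it was at least 4-fold above every other library, and 1.8% of all genes did this. In bulk tissue, fewer cells of a type and less RNA per cell cannot be told apart, nor can more of either. All 3 obesogenic libraries lay above all 3 control libraries in 2 members (H2-Bl and Nlrc5; 8.88% of all genes), and below them in 0 members (7.45% of all genes).

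**Figure D1:**
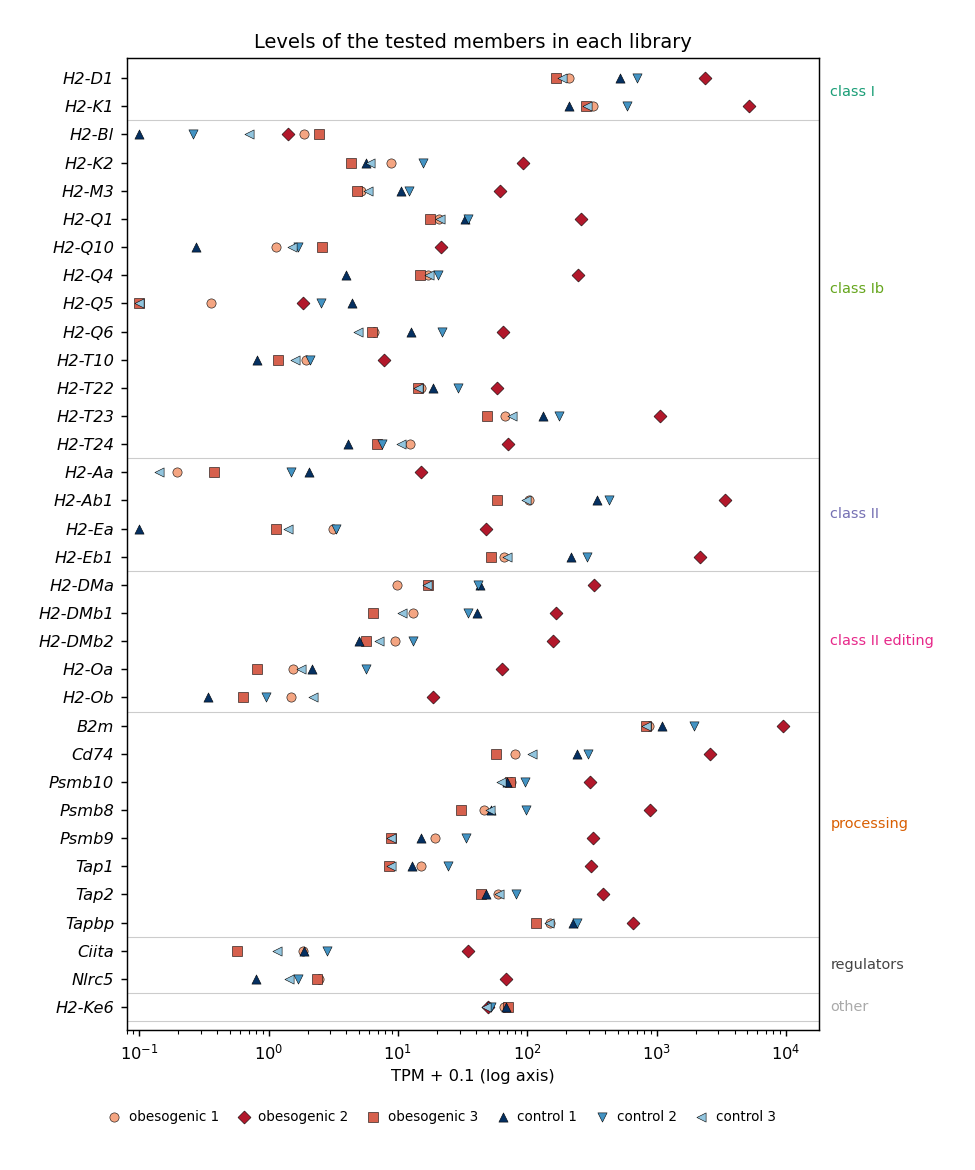
Level of each of the 34 tested members in each library (TPM + 0.1, log axis), with obesogenic libraries in reds and control libraries in blues, grouped by class. Obesogenic library 2 is farthest right in 31 members, while obesogenic libraries 1 and 3 lie among or left of the control libraries in most.

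Both classical class I genes were highest in obesogenic library 2. H2-K1 (ENSMUSG00000061232) measured 322, 5178 and 284 TPM in obesogenic libraries, against 212, 588 and 289.5 TPM in control libraries (log2 change 1.24, SE 1.07, limma adjusted p = 0.73). H2-D1 (ENSMUSG00000073411) measured 211, 2368 and 166 TPM in obesogenic libraries, against 522, 706 and 184 TPM in control libraries (log2 change 0.10, SE 1.02, limma adjusted p = 0.982). Apart from library 2, the obesogenic levels of H2-K1 lay within the control range, and those of H2-D1 lay near control library 3, the lowest of the control libraries. The ratio of H2-K1 to H2-D1 was 1.53, 2.19 and 1.71 in obesogenic libraries and 0.406, 0.832 and 1.57 in control libraries, so control libraries 1 and 2 had more H2-D1 than H2-K1 and the other 4 had more H2-K1. The H2-K1 level lacks its principal transcript in every library.

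B2m, the light chain of every class I molecule, was the most abundant member. It measured 880.5, 9466 and 821 TPM in obesogenic libraries, against 1098, 1949 and 821 TPM in control libraries (log2 change 0.65, SE 0.92, limma adjusted p = 0.845). Its ratio to the sum of H2-K1 and H2-D1 was 1.65, 1.25 and 1.83 in obesogenic libraries and 1.497, 1.51 and 1.73 in control libraries. The ratio was lowest in obesogenic library 2, where the levels of both were highest.

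Of the 27 nonclassical genes, 12 were tested. H2-T23, which encodes the Qa-1 molecule that NK cells read, was the most abundant, at 67.0, 1059 and 48.4 TPM in obesogenic libraries, against 132, 177 and 76.5 TPM in control libraries. H2-Q4 measured 16.9, 246 and 14.7 TPM in obesogenic libraries and 3.87, 20.3 and 17.2 TPM in control libraries. H2-Q1 measured 20.6, 261 and 17.7 TPM in obesogenic and 32.9, 35 and 21.0 TPM in control libraries. All of these were highest in obesogenic library 2, and H2-T23 and H2-Q1 were lower in obesogenic libraries 1 and 3 than in any control library. H2-Q4 differed in having its lowest level in control library 1.

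H2-M3, which presents formylated peptides, measured 5.10, 61 and 4.72 TPM in obesogenic libraries and 10.5, 12.1 and 5.79 TPM in control libraries. H2-Q6 measured 6.39, 64.4 and 6.18 TPM in obesogenic and 12.6, 21.7 and 4.83 TPM in control libraries. H2-K2 measured 8.81, 92.4 and 4.20 TPM in obesogenic and 5.58, 15.4 and 5.99 TPM in control libraries. Control library 2 came second in all 3 of these. The main H2-K2 transcript, H2-K2-201, is labelled as a pseudogene, and it was at 0 in control library 1. H2-T22, a ligand of some gamma delta T cell receptors, measured 15.0, 58.4 and 14.1 TPM in obesogenic and 18.5, 29.1 and 14.1 TPM in control libraries. Obesogenic library 2 exceeded every other library in all of these, by less in H2-T22 than in the rest. H2-T24 measured 12.2, 70.3 and 6.83 TPM in obesogenic and 4.01, 7.42 and 10.5 TPM in control libraries. H2-Q10, known as a liver-secreted class I protein, measured 1.03, 21.4 and 2.46 TPM in obesogenic and 0.172, 1.58 and 1.42 TPM in control libraries. H2-T10 measured 1.85, 7.75 and 1.08 TPM in obesogenic and 0.718, 2.01 and 1.504 TPM in control libraries. In these last genes obesogenic library 2 was again highest, and control library 1 was lowest.

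H2-Q5 and H2-Bl were the tested nonclassical genes in which obesogenic library 2 was not the highest. H2-Q5 measured 0.257, 1.74 and 0 TPM in obesogenic and 4.32, 2.45 and 0 TPM in control libraries, highest in control library 1, and it is the 1 tested member with a negative change (log2 change -0.80, SE 0.69, limma adjusted p = 0.727). H2-Bl measured 1.78, 1.31 and 2.36 TPM in obesogenic and 0, 0.160 and 0.603 TPM in control libraries (log2 change 1.18, SE 0.35, limma adjusted p = 0.337). Its groups did not overlap, but it reached 1 TPM in obesogenic libraries alone and so could be tested only because it was high there. The levels of H2-Bl and H2-Q5 rested only on transcripts labelled polymorphic pseudogene or retained intron. The other 10 tested nonclassical genes had log2 changes between 0.23 (H2-T22) and 1.73 (H2-Q4), with limma adjusted p between 0.591 and 0.937. Genes of the Q and T regions are near-identical in places, so reads may be split between them and single levels are uncertain.

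Of the class II surface chains, H2-Ab1 and H2-Eb1, the beta chains of the A and E molecules, were abundant. Most of the H2-Eb1 level was of transcripts labelled retained intron or nonsense-mediated decay. Its listed protein-coding transcript, H2-Eb1-203, measured 3.00, 116 and 3.56 TPM in obesogenic and 21.0, 14.6 and 4.86 TPM in control libraries. H2-Ab1 (ENSMUSG00000073421) measured 102, 3396 and 58.6 TPM in obesogenic libraries, against 348, 431 and 97.6 TPM in control libraries (log2 change 0.16, SE 1.45, limma adjusted p = 0.978). H2-Eb1 (ENSMUSG00000060586) measured 66.2, 2159 and 51.9 TPM in obesogenic libraries, against 218, 289 and 69.6 TPM in control libraries (log2 change 0.26, SE 1.37, limma adjusted p = 0.959). Both were highest in obesogenic library 2, next highest in control libraries 1 and 2, and low in obesogenic libraries 1 and 3 and control library 3. H2-Eb1 kept a ratio of 0.649, 0.636 and 0.886 to H2-Ab1 in obesogenic libraries and 0.627, 0.671 and 0.713 in control libraries.

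The alpha chains were listed far lower. H2-Aa measured 0.0943, 15.0 and 0.277 TPM in obesogenic libraries and 1.97, 1.38 and 0.0427 TPM in control libraries, and its ratio to its partner H2-Ab1 did not exceed 0.00565 in any library. The level of H2-Aa rests on 3 minor transcripts, without its principal one. H2-Ea measured 3.02, 47.6 and 1.04 TPM in obesogenic libraries and 0, 3.21 and 1.32 TPM in control libraries, with the 0 in control library 1. As background, mouse strains with the b haplotype of the MHC, such as C57BL/6, do not transcribe H2-Ea, and some other haplotypes do. H2-Eb2 was at most 0.438 TPM and was not tested.

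Cd74, the invariant chain that fills the class II groove until a peptide is loaded, followed H2-Ab1. It measured 80.2, 2604 and 56.7 TPM in obesogenic libraries, against 244, 294 and 108 TPM in control libraries (log2 change 0.21, SE 1.35, limma adjusted p = 0.967). Its ratio to H2-Ab1 was 0.786, 0.767 and 0.968 in obesogenic libraries and 0.701, 0.683 and 1.11 in control libraries. Obesogenic libraries 1 and 3 were below all control libraries for Cd74, and library 2 was 8.84-fold above the highest of the other 5.

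The peptide editing chains had the same order of libraries in part. H2-DMa, the alpha chain of the DM editor, measured 9.68, 327 and 17.1 TPM in obesogenic libraries and 43.4, 41.6 and 16.8 TPM in control libraries. Of its beta chains, H2-DMb1 measured 13.1, 168 and 6.30 TPM in obesogenic and 40.5, 34.6 and 10.7 TPM in control libraries. H2-DMb2, the other, measured 9.40, 159 and 5.59 TPM in obesogenic and 4.88, 12.9 and 7.05 TPM in control libraries. All 3 chains were highest in obesogenic library 2, while control library 1 was high for H2-DMa and H2-DMb1 and lowest for H2-DMb2. Their balance differed between libraries: the ratio of H2-DMb2 to H2-DMb1 was 0.719, 0.949 and 0.887 in obesogenic libraries and 0.121, 0.374 and 0.661 in control libraries. Both groups were thus below 1, and the lowest obesogenic ratio exceeded the highest control ratio. H2-DMb1 and H2-DMb2 are close paralogs that may share reads, and this ratio was picked after the values were seen, so it carries no test.

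The DO chains, which restrain DM and are known mainly from B cells, were low outside obesogenic library 2. H2-Oa measured 1.45, 64.1 and 0.719 TPM in obesogenic and 2.05, 5.61 and 1.69 TPM in control libraries. H2-Ob, without its principal transcript, measured 1.38, 18.6 and 0.539 TPM in obesogenic and 0.242, 0.853 and 2.11 TPM in control libraries. The 5 editing chains had log2 changes from 0.0029 (H2-DMb1) to 1.35 (H2-DMb2), with limma adjusted p from 0.715 to 0.9995.

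The immunoproteasome subunits replace constitutive subunits of the proteasome. Psmb8 measured 46.3, 883 and 30.7 TPM in obesogenic and 52.6, 98.4 and 51.4 TPM in control libraries. Psmb9 measured 19.1, 319 and 8.70 TPM in obesogenic and 14.9, 33.6 and 8.78 TPM in control libraries. Psmb10 measured 74.4, 305 and 73.0 TPM in obesogenic and 70.2, 96.0 and 63.0 TPM in control libraries. All 3 were highest in obesogenic library 2 and next highest in control library 2. Each was also set against the constitutive subunit it replaces. The ratio of Psmb8 to Psmb5 was 0.392, 8.64 and 0.185 in obesogenic libraries and 0.475, 0.601 and 0.426 in control libraries. Psmb9 over Psmb6 was 0.0566, 1.26 and 0.0218 in obesogenic and 0.0481, 0.110 and 0.0301 in control libraries. Psmb10 over Psmb7 was 0.593, 3.53 and 0.468 in obesogenic and 0.562, 0.793 and 0.535 in control libraries. In obesogenic library 2 each immune subunit exceeded its partner, and in the other 5 libraries each was below it.

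The peptide transporter and tapasin, its bridge to class I, were also highest in obesogenic library 2. Tap1 measured 15.0, 309 and 8.46 TPM in obesogenic and 12.8, 24.4 and 8.71 TPM in control libraries. Tap2 measured 59.6, 387 and 43.9 TPM in obesogenic and 48.0, 81.1 and 60.3 TPM in control libraries. Tapbp, the tapasin gene, measured 149.7, 651 and 116 TPM in obesogenic and 227, 241 and 148 TPM in control libraries. Library 2 stood 12.6-fold above the highest other library for Tap1, 4.77-fold for Tap2 and 2.71-fold for Tapbp. The 8 genes of light chain, processing and loading had log2 changes from 0.16 (Tapbp) to 1.26 (Tap1), with limma adjusted p from 0.717 to 0.967.

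The coactivators were low outside obesogenic library 2, and Nlrc5 had the widest gap of the tested members between that library and the next. Nlrc5 (ENSMUSG00000074151), the class I coactivator, measured 2.33, 68.9 and 2.28 TPM in obesogenic libraries, against 0.697, 1.595 and 1.34 TPM in control libraries (log2 change 2.07, SE 1.13, limma adjusted p = 0.555). Library 2 was 29.5-fold above the highest other library, and obesogenic libraries 1 and 3 also lay above all control libraries, by less than 1 TPM. The Nlrc5 level lacks 1 of its 2 principal transcripts in every library. Ciita (ENSMUSG00000022504), the class II coactivator, measured 1.75, 34.8 and 0.467 TPM in obesogenic libraries, against 1.76, 2.73 and 1.07 TPM in control libraries (log2 change 0.92, SE 1.10, limma adjusted p = 0.808). Here obesogenic libraries 1 and 3 lay within or below the control range.

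Among the names that are not MHC chains, H2-Ke6 (a steroid dehydrogenase gene within the complex) measured 65.7, 49.8 and 70.5 TPM in obesogenic and 68.2, 52.5 and 48.3 TPM in control libraries. Obesogenic library 2 was 1 of the 3 lowest libraries for it, unlike for its MHC neighbours. Immunoglobulin genes took 20.6% of the listed TPM in that library, so this rank may depend on the scaling. The H2-Ke6 level lacks its principal transcript in every library. The 18 members that were not tested include 10 listed at 0 in every library (H2-M1, H2-M9, H2-M10.2, H2-M10.3, H2-M10.4, H2-M10.5, H2-M10.6, H2-M11, H2-Q3 and H2-Pb). H2-Q7 reached the highest level of the other 8, at 0, 0.882 and 0 TPM in obesogenic libraries and 18.4, 9.30 and 0.104 TPM in control libraries. It is one of the Qa-2 genes, nearly identical to H2-Q6 in sequence, and its level was concentrated in control libraries 1 and 2. H2-M2 reached 4.37 TPM in obesogenic library 2 and H2-Q2 2.16 TPM in control library 1. H2-T3, H2-Eb2, H2-M5, H2-Pa and H2-M10.1 did not exceed 0.538 TPM.

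The classes were compared by their medians in each obesogenic library against the control mean, on the log2(TPM + 1) scale. In obesogenic library 2 the median difference was 3.25 for classical class I (2 genes), 2.87 for nonclassical (12 genes) and 3.71 for class II (9 genes). It was 3.34 for processing and loading (8 genes) and 4.35 for the regulators (2 genes), beside -0.16 for all genes tested. In obesogenic library 1 the medians were -0.49, -0.15 and -0.83 for classical, nonclassical and class II genes, and in library 3 -0.75, -0.57 and -0.83, beside 0.19 and 0.14 for all genes. Class II thus had the largest positive and the largest negative medians of these 3 classes, depending on the library, and all 9 of its tested genes had obesogenic library 2 at least 4-fold above every other, as did 7 of 12 nonclassical and 1 of 2 classical genes. The difference between classes was not tested.

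**Figure D2:**
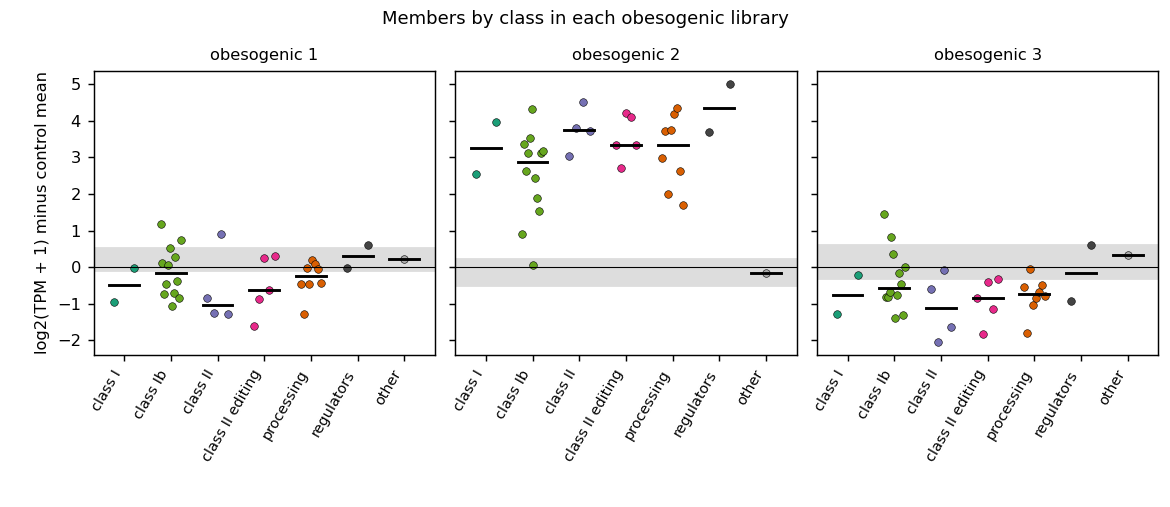
Difference of each tested member from the mean of the 3 control libraries in obesogenic libraries 1, 2 and 3, on the log2(TPM + 1) scale, by class; black bars are class medians and the grey band is the middle 50% of all genes tested. Class II surface chains sit at a median of 3.75 in obesogenic library 2, and at -1.04 and -1.12 in obesogenic libraries 1 and 3. Class II editing chains, drawn apart, sit at 3.35 in obesogenic library 2, and at -0.63 and -0.83 in obesogenic libraries 1 and 3.

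Summed over members, class II reached 206, 6355 and 142 TPM in obesogenic libraries and 659, 820.2 and 207 TPM in control libraries. Classical class I summed to 533, 7546 and 450.0 TPM in obesogenic and 733, 1294 and 474 TPM in control libraries. Nonclassical class I summed to 158, 1951 and 123 TPM in obesogenic and 246, 334 and 159.6 TPM in control libraries. In these 3 classes the order was obesogenic library 2, then control libraries 2 and 1, then the other 3. Per unit of classical class I, H2-Ab1 stood at 0.192, 0.450 and 0.130 in obesogenic libraries and 0.475, 0.333 and 0.206 in control libraries. Control library 1 and obesogenic library 2 therefore had the most H2-Ab1 relative to H2-K1 plus H2-D1, although their total levels differed widely.

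Without obesogenic library 2 most changes were negative. The sign was then negative in 26 of the 34 members (5358 of all genes tested), with medians of -0.62 for classical class I, -0.38 for nonclassical, -0.88 for class II and -0.42 for processing and loading, beside 0.16 for all genes. Again 0 members passed (limma, adjusted over all genes), with 7 at an unadjusted p under 0.05, while the same fit called 6.36% of all genes and gave 3438 genes an unadjusted p under 0.05. The smallest adjusted p of a member was that of Cd74 (log2 change -1.54, SE 0.42, limma adjusted p = 0.0865). H2-Ab1 had a log2 change of -1.65 (limma adjusted p = 0.175) and H2-T23 of -1.08 (limma adjusted p = 0.129). Obesogenic libraries 1 and 3 lay below all control libraries in 7 of the 34 members (H2-M3, H2-Q1, H2-T23, H2-Eb1, H2-Oa, Cd74 and Psmb8), and in 11.8% of all genes. Control library 3 was the lowest control library in 22 of the 34 members and in 5341 of all genes tested.

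**Figure D3:**
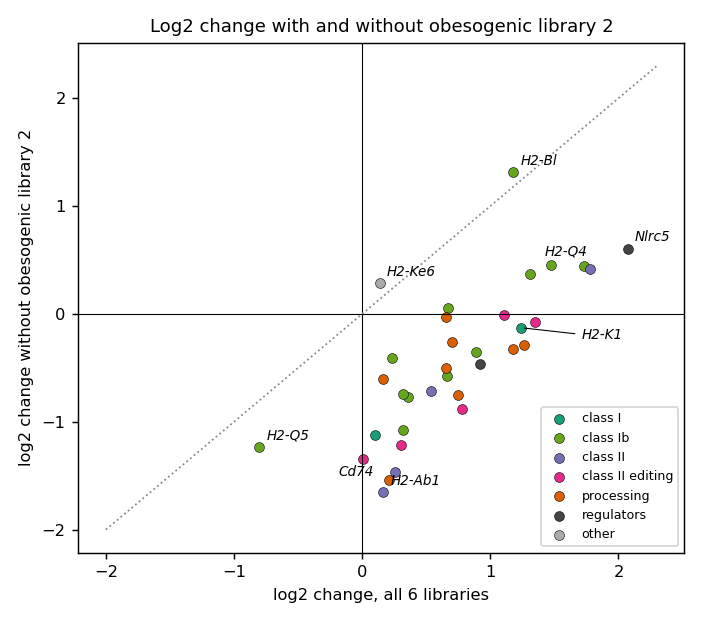
Log2 change (obesogenic minus control) of the 34 tested members over all 6 libraries (x axis) and without obesogenic library 2 (y axis), coloured by class; the dotted line marks equal values. Most members lie right of 0 and below 0, such as Cd74 at 0.21 and -1.54, whereas H2-Bl and Nlrc5 stay positive on both axes.

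Transcript makeup set control library 1 apart in several class I genes. H2-K1-205 made up 73.1%, 76.7% and 68.1% of H2-K1 in obesogenic libraries and 11.6%, 61.4% and 72.2% in control libraries. H2-K2-201 made up 97.0%, 91.0% and 91.2% of H2-K2 in obesogenic and 0%, 81.1% and 87.0% in control libraries. H2-Q6-201 made up 100%, 99.9% and 100% of H2-Q6 in obesogenic and 0%, 36.5% and 98.3% in control libraries. In each, control library 1 had none or the smallest share of the named transcript, control library 2 lay between in H2-Q6, where the other transcript led, and control library 3 was close to the obesogenic libraries. H2-Q1 had the same order, with H2-Q1-202 at 100%, 100% and 99.5% in obesogenic and 39.6%, 67.9% and 97.3% in control libraries. H2-D1-203 made up 16.4%, 19.3% and 14.8% of H2-D1 in obesogenic and 2.21%, 4.67% and 13.4% in control libraries. By contrast H2-Ab1-201 made up 97.3%, 96.9% and 98.3% of H2-Ab1 in obesogenic and 92.97%, 97.9% and 96.5% in control libraries, so H2-Ab1 had 1 main transcript throughout. H2-Eb1, the other abundant class II beta chain, was divided among several transcripts. Of these, H2-Eb1-202 made up 36.3%, 34.5% and 44.4% in obesogenic and 27.3%, 35.8% and 37.6% in control libraries.

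**Figure D4:**
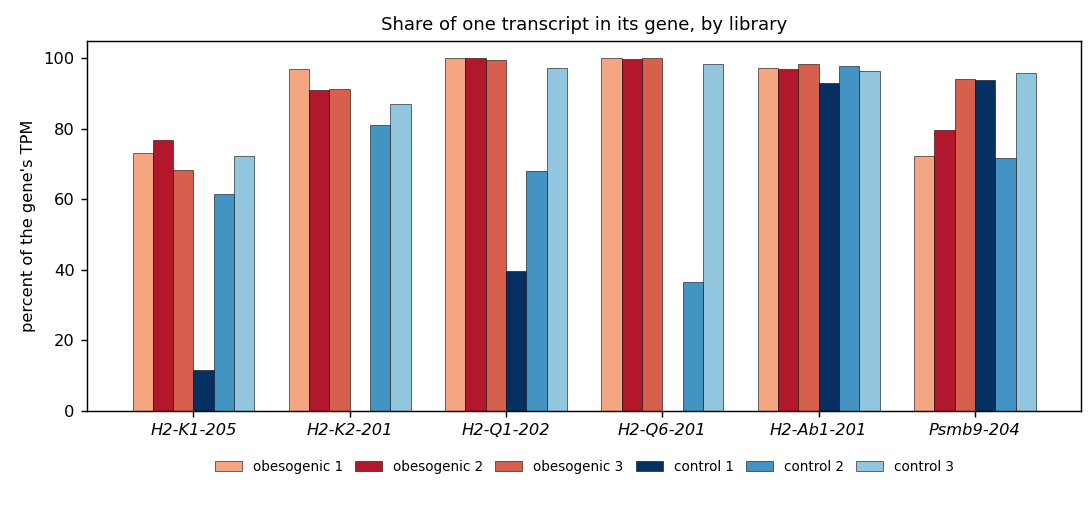
Share of 1 transcript in its gene's summed TPM (percent) in each library, with obesogenic libraries in reds and control libraries in blues. Control library 1 is at 0 for H2-K2-201 and H2-Q6-201 and at 11.6% for H2-K1-205, whereas H2-Ab1-201 is above 90% in every library.

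The makeup of a gene was compared between libraries by the share of TPM that would have to move between transcripts, averaged over the other 5 libraries. Control library 1 was the farthest from the rest in 12 of the 22 members with several transcripts and at least 1 TPM in every library (9 of 15 with an H2- symbol, 3 of 7 without). It was the farthest in 17.2% of 10523 genes overall. The gap between control library 1 and the next library ranked at percentile 98.7 of all genes for H2-K1, 99.7 for H2-K2, 97.6 for H2-Q4, 97.2 for H2-Q6 and 95.3 for H2-Q1. The gap ranked lower in the other members with control library 1 farthest. It was at percentile 87.7 for H2-Ke6, 53.5 for H2-DMb2, 43.6 for H2-Ab1 and 37.1 for H2-D1. For Psmb10, Cd74 and Tap1 the percentiles were 20.4, 14.2 and 7.21. The median gap of the farthest library was 0.0216 over the 22 members and 0.0307 over all genes. As background, MHC alleles differ between inbred strains, and reads of an allele unlike the reference can be assigned to another class I gene or transcript. Whether the mice differed in haplotype was not tested. Control libraries 1 and 2, in which the ratio of H2-K1 to H2-D1 was below 1 and H2-Q7 was above 1 TPM, are both of the control diet. Control library 3, of the same diet, had a ratio of 1.57 and 0.104 TPM of H2-Q7, near the obesogenic libraries. The difference thus divided the control libraries, and its part in the diet comparison of those genes was not tested. Without obesogenic library 2 and control library 1, 28 of the 34 members had a sign opposite to that over all libraries.

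Of the members' 201 transcripts, 80 were tested and 0 were called (limma, adjusted over 35408 transcripts), with 6 at an unadjusted p under 0.05, whereas 0.00565% of all transcripts were called. The smallest unadjusted p was that of Psmb10-203, a transcript without a coding sequence, at 12.8, 33.0 and 7.48 TPM in obesogenic and 0, 2.24 and 0 TPM in control libraries (log2 change 3.42, SE 0.68, limma adjusted p = 0.231). It reached 1 TPM in only 1 control library and so could be tested only because it was high in obesogenic libraries. H2-K1-206 measured 29.6, 76.8 and 34.9 TPM in obesogenic and 10.6, 26.2 and 25.3 TPM in control libraries (log2 change 1.12, SE 0.47, limma adjusted p = 0.59), with all obesogenic libraries above all control libraries, as in 7.43% of all transcripts tested.

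Other genes of the pathways, taken from lists chosen by role, gave no call between diets either. Of 13 further class I pathway genes all were tested and 0 passed (limma, adjusted over all genes), with 1 at an unadjusted p under 0.05 and a median log2 change of 0.10. It was Cd1d1, an MHC-like molecule that presents lipids, at 6.17, 6.56 and 7.35 TPM in obesogenic and 1.92, 3.69 and 2.62 TPM in control libraries (log2 change 1.06, SE 0.31, limma adjusted p = 0.327). Psme1, an activator subunit of the proteasome, measured 102, 279.6 and 118 TPM in obesogenic and 91.4, 101 and 83.6 TPM in control libraries. Both had all obesogenic libraries above all control libraries, as in 8.88% of all genes. Pdia3, a partner of tapasin in peptide loading, measured 35.4, 76.3 and 0.686 TPM in obesogenic and 91.7, 28.2 and 27.4 TPM in control libraries, with obesogenic library 3 far below the rest. The tapasin relative Tapbpl measured 15.3, 79.3 and 14.8 TPM in obesogenic and 18.2, 20.7 and 14.7 TPM in control libraries, highest in obesogenic library 2 as its relative was.

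Of 10 further class II pathway genes 9 were tested and 0 passed (limma), with 3 at an unadjusted p under 0.05 and a median of 0.18. Marchf1, a ubiquitin ligase that removes class II and CD86 from the surface, measured 11.99, 13.3 and 9.57 TPM in obesogenic and 7.16, 3.45 and 2.61 TPM in control libraries (log2 change 1.30, SE 0.37, limma adjusted p = 0.321). Cd83, which opposes Marchf1 at the surface, measured 14.6, 51.2 and 55.2 TPM in obesogenic and 11.3, 10.5 and 9.79 TPM in control libraries (log2 change 1.64, SE 0.49, limma adjusted p = 0.334). Ctsl, a protease of the class II pathway, measured 251, 272 and 255 TPM in obesogenic and 331, 374 and 319 TPM in control libraries (log2 change -0.39, limma adjusted p = 0.446). In these 3 genes the diets did not overlap, as in 8.88% of all genes in the higher and 7.45% in the lower direction. Obesogenic library 2 was not set apart in them from both other obesogenic libraries.

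The transcription factors and interferon genes were mixed in that respect. Of 14 MHC transcription factors 13 were tested and 0 passed (limma), with 0 at an unadjusted p under 0.05 and a median of 0.58. Creb1, a factor that binds the X2 box, measured 3.84, 4.01 and 1.90 TPM in obesogenic and 0.667, 1.5 and 1.71 TPM in control libraries. Rfx5, which binds the X box of class II genes, measured 15.1, 11.2 and 15.2 TPM in obesogenic and 8.65, 10.1 and 7.77 TPM in control libraries. In neither gene was obesogenic library 2 far above the other libraries. In both, all obesogenic libraries lay above all control libraries, as in 8.88% of all genes. Of 12 interferon gamma signalling genes 9 were tested and 0 passed (limma), with 0 at an unadjusted p under 0.05 and a median of 0.50. The receptor kinase Jak1 measured 83.1, 87.0 and 75.2 TPM in obesogenic and 62.8, 67.9 and 58.4 TPM in control libraries. Cxcl10, an interferon-induced chemokine, measured 2.48, 11.4 and 0 TPM in obesogenic and 0.173, 1.03 and 0 TPM in control libraries. Irgm1, an interferon-induced GTPase, measured 48.3, 688 and 21.6 TPM in obesogenic and 31.8, 61.1 and 27.5 TPM in control libraries. Cxcl10 and Irgm1 were far higher in obesogenic library 2 than elsewhere, and Jak1 was slightly higher in every obesogenic library. Ifng itself, picked for its values, stood at 0, 4.93 and 0.981 TPM in obesogenic libraries and 0 in all 3 control libraries.

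Markers of immune cells moved with the members in obesogenic library 2. The 14 T and NK cell markers summed to 10.1, 442 and 22.5 TPM in obesogenic and 19.8, 28.3 and 14.6 TPM in control libraries. The 10 B and plasma cell markers summed to 43.9, 2589 and 33.3 TPM in obesogenic and 39.0, 41.7 and 33.6 TPM in control libraries. Outside obesogenic library 2 both sums were low in every library. Trbc2, a constant part of the T cell receptor, measured 1.92, 70.4 and 10.9 TPM in obesogenic and 2.51, 4.84 and 3.18 TPM in control libraries. Xbp1, a transcription factor of plasma cells also present in other cells, measured 36.9, 74.1 and 28.9 TPM in obesogenic and 30.8, 28.1 and 23.8 TPM in control libraries. Both were highest in obesogenic library 2. In library 2 most of the B and plasma cell sum was Jchain, the joining chain of secreted antibodies, at 1.39, 2215 and 1.52 TPM in obesogenic and 0.135, 8.70 and 1.20 TPM in control libraries. The 9 dendritic cell markers summed to 16.3, 88.8 and 18.1 TPM in obesogenic and 30.4, 24.98 and 31.2 TPM in control libraries. The 10 microglia markers summed to 664, 2456 and 589 TPM in obesogenic and 905, 835 and 626 TPM in control libraries. All of these sums were highest in obesogenic library 2. Of these lists' tested markers, 7 of 14, 5 of 10, 5 of 9 and 10 of 10, none passed between diets (limma), with 0, 0, 1 and 0 at an unadjusted p under 0.05. The 1 was Cd209a, a lectin of dendritic cells, at 2.68, 6.85 and 2.45 TPM in obesogenic and 11.0, 11.4 and 12.6 TPM in control libraries (log2 change -1.45, SE 0.38, limma adjusted p = 0.283). All its obesogenic levels lay below its control levels, as in 7.45% of all genes, against the direction of its list's sum in obesogenic library 2. Without that library Cd209a was called (log2 change -1.83, limma adjusted p = 0.0209), beside 6.36% of all genes. P2ry12, a receptor of microglia, measured 55.9, 59.1 and 49.2 TPM in obesogenic and 94.0, 56.1 and 54.8 TPM in control libraries. No listed marker was at 0 in every library.

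For border macrophages, endothelium and meningeal fibroblasts, all obesogenic marker sums lay below all control sums. The 8 border macrophage markers summed to 85.2, 45.1 and 67.2 TPM in obesogenic and 170.4, 161 and 149 TPM in control libraries. The 8 endothelium markers summed to 347, 329 and 439 TPM in obesogenic and 1019, 814 and 624 TPM in control libraries. The 8 meningeal fibroblast markers summed to 491, 582.3 and 426 TPM in obesogenic and 1564, 1398 and 1025 TPM in control libraries. In each of these 3 lists the diets did not overlap in 6 markers, all lower with the obesogenic diet, as in 7.45% of all genes. The 8 neuron markers went the other way, at 310.3, 177 and 873 TPM in obesogenic and 91.8, 65.6 and 129 TPM in control libraries, with 6 markers higher in every obesogenic library, as in 8.88% of all genes.

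No marker of these 4 lists passed between diets (limma), with 5, 7, 8 and 6 at an unadjusted p under 0.05, beside 1575 of all 14364 genes. Without obesogenic library 2 the same fit called 2, 3, 5 and 5 of them, beside 6.36% of all genes. The marker of smallest unadjusted p over all libraries was F13a1 among border macrophage markers, a coagulation factor subunit, at 14.4, 8.35 and 10.7 TPM in obesogenic and 27.8, 29.3 and 30.8 TPM in control libraries. Among endothelium markers it was the membrane protein Itm2a, at 227, 195 and 243 TPM in obesogenic and 636, 493 and 427 TPM in control libraries. Among meningeal fibroblast markers it was Aldh1a2, an enzyme of retinoic acid synthesis, at 109, 93.9 and 92.3 TPM in obesogenic and 291, 325 and 251 TPM in control libraries. These 3 genes were lower in all obesogenic libraries, and library 2 was not set apart in them. Among neuron markers it was Gad1, an enzyme of GABA synthesis, at 24.2, 7.46 and 29.0 TPM in obesogenic and 4.82, 0.263 and 0.816 TPM in control libraries. The part of any of these cell types in the members' levels was not tested.

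**Figure D5:**
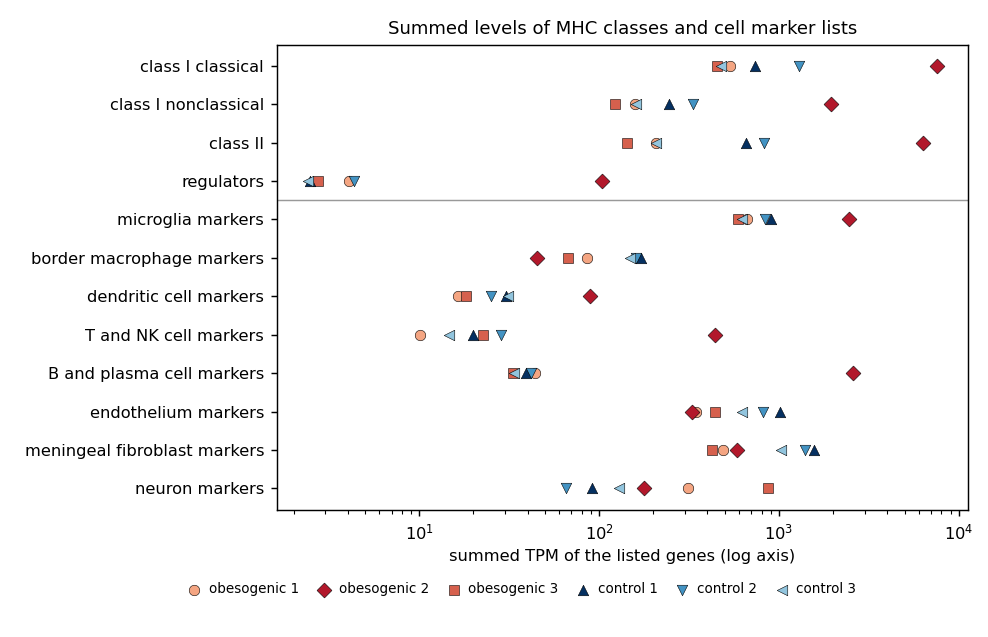
Summed TPM (log axis) of MHC classes above the line and of cell marker lists below it, in each library, with obesogenic libraries in reds and control libraries in blues. In obesogenic library 2 class II stands at 6355 TPM and B and plasma cell markers at 2589 TPM, both the highest of the 6 libraries, while border macrophage markers are at 45.1 TPM, the lowest.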

How the data were processed

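The labels name the NucleoSpin RNA Plus XS kit for extraction and the SMART-Seq mRNA kit for libraries. The authors deposited transcript abundances in TPM, in which reads are divided by transcript length and scaled per library. DRAGEN, STAR 2.7.9a, Subread and featureCounts 2.0.3 appear in the submitters' processing notes, with no role given. Which of them made the TPM values, and the genome build and annotation, is not given in the sources used here. Listed values summed to 788456 to 832193 TPM per library, so the rest was not analysed here. TPM does not keep depth, which is therefore unknown, and counting intervals were not computed.

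Repeated lines of a transcript (110028 lines, 109383 transcripts) were counted once, and transcripts were summed to genes. Genes that reached 1 TPM in 3 or more of the 6 libraries were tested as log2(TPM + 1), a scale that understates the change of low genes, with limma 3.58.1 (lmFit, eBayes with trend) in R 4.3.3, obesogenic minus control. Tests are two-sided, with Benjamini-Hochberg adjustment over all genes (or transcripts) tested and a threshold of 0.05. The fit was tested on simulated data. Fits without a library kept the same genes.

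The members and lists were chosen with earlier results of these data known. The rule names every tested member, gives untested ones by their highest level, and names up to 4 genes of smallest unadjusted p in each other list, from the smallest on, plus Nf1; 1 gene that it names is not reported here. Ifng was named for its values. Classes were described by counts and medians. Alternatives covered the pseudocount, filter, scaling, sample number as a block, array weights, eBayes, most abundant transcript and removal of libraries. Promoter motifs were searched in RefSeq sequence of GRCm38.p6. Figures were drawn with matplotlib 3.10.9.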

Additional observations from a re-analysis of the deposited data

How the results depend on the processing

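The result that no member passed between diets (limma, adjusted over all genes) held under every alternative but limma's array weights, which called 1 member, H2-Bl (log2 change 1.22, adjusted p = 0.0248), together with 2064 of all genes (1505 higher, 559 lower). The level of H2-Bl rested only on transcripts labelled polymorphic pseudogene or retained intron. Over all genes, 1 gene was called, and 0 without the filter or with a mean of at least 5 TPM. Leaving out libraries gave 0 to 914 genes, the 914 without obesogenic library 2, and 8 without that library and control library 1, a pair chosen after seeing the data. With the sample number as a replicate block 1 gene and 0 members were called, and class medians were the same. That gene was higher with the obesogenic diet, whereas the 1 gene called without the block was lower, so they are different genes. Same-numbered libraries had correlations of 0.00787, 0.177 and 0.132 of their deviations from group means. Differently numbered libraries had correlations from -0.169 to 0.107. The highest values, 0.177 and 0.132, were thus of same-numbered libraries, but all were small and the numbers were not taken to pair samples.

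Array weights gave a negative sign to 18 members that were positive over all libraries. The log2 changes were then -0.96 for H2-D1, -0.67 for H2-M3, -0.40 for H2-Q1, -0.71 for H2-Q6, -0.36 for H2-T22, -0.81 for H2-T23, -0.74 for H2-Aa, -1.26 for H2-Ab1, -1.25 for H2-Eb1, -1.43 for H2-DMa, -0.92 for H2-DMb1, -0.57 for H2-Oa, -0.40 for B2m, -1.24 for Cd74, -0.41 for Psmb8, -0.0101 for Tap2, -0.42 for Tapbp and -0.0012 for Ciita. The class medians were -0.46, -0.14, -0.74 and -0.21 for classical, nonclassical, class II and processing genes. H2-DMb1, at 0.0029 over all libraries, also turned negative with a pseudocount of 0.1 (-0.033) or 0.5 (-0.016), median-of-ratios scaling (-0.037) and the most abundant transcript (-0.14). The median over all genes was 0.08, 0.03 with median-of-ratios scaling and 0.18 after rescaling without immunoglobulin genes.

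Leaving out libraries turned the sign of 28 members in at least 1 fit: 25 without obesogenic library 2, 9 without control library 3 and 28 without obesogenic library 2 and control library 1. The ranges of their log2 changes over these fits were as follows. Among class I genes they were -1.12 to 0.79 for H2-D1, -0.45 to 1.96 for H2-K1, -0.58 to 1.73 for H2-K2, -0.77 to 0.95 for H2-M3, -0.57 to 1.33 for H2-Q1, -0.23 to 2.43 for H2-Q4, -0.74 to 0.85 for H2-Q6, -0.17 to 1.09 for H2-T10, -0.46 to 0.58 for H2-T22 and -1.08 to 1.14 for H2-T23. Among class II chains they were -0.72 to 1.22 for H2-Aa, -1.65 to 1.27 for H2-Ab1, -0.13 to 2.71 for H2-Ea, -1.47 to 1.21 for H2-Eb1, -1.21 to 1.26 for H2-DMa, -1.35 to 0.92 for H2-DMb1, -0.36 to 2.23 for H2-DMb2, -1.04 to 1.74 for H2-Oa and -0.33 to 1.82 for H2-Ob. Among processing genes and Ciita they were -0.57 to 1.26 for B2m, -1.54 to 1.21 for Cd74, -0.077 to 1.00 for Psmb10, -0.90 to 1.65 for Psmb8, -0.40 to 2.20 for Psmb9, -0.35 to 2.23 for Tap1, -0.44 to 1.29 for Tap2, -0.60 to 0.64 for Tapbp and -0.47 to 1.84 for Ciita. H2-Bl, H2-Q5, H2-Q10, H2-T24, Nlrc5 and H2-Ke6 kept their sign in every such fit. With 3 libraries per diet, 1 of them far from the rest, and values that carry no depth, the data could not show modest changes, and a missed threshold does not show equal levels.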
